A study of Mus musculus with 9 samples.

Results

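Expression of 7 genes that are known from fat cells (Adipoq, Cfd, Plin1, Plin4, Car3, Cidec and Retn) was examined in mouse heart RNA, where they were found by gene symbol among the 29237 genes of a deposited expression table. Plin4 was the one gene of the 7 with a sizeable level in heart, at 19.999 to 38.9 FPKM (fragments per kilobase of transcript, scaled to a library's mapped fragments). Its 3 TPTN libraries lay below all 6 others, as held for 2.87% of the genes tested. After adjustment for all genes tested, its difference passed the threshold in none of the 3 comparisons of groups. The other 6 genes were at or near 0 in most libraries. Each of the 6 was highest in DOX replicate 1, as were 16.5% of all genes under the expression minimum. The data were 9 polyadenylated RNA libraries in 3 groups of 3, which the labels call TPTN, DOX and control. All were hearts of wild-type C57BL/6 mice aged 8 to 12 weeks. The study's text describes a group treated with TPTN, a doxorubicin model group and a normal group. Doxorubicin is an anthracycline cancer drug that can injure heart muscle, and the series title names dilated cardiomyopathy caused by it. The labels spell out neither TPTN nor whether those mice also received doxorubicin, and they give no dose, day, sex or part of the heart. Whether replicates are different mice is not stated either, and each p-value therefore speaks of the variation among these libraries, which may be technical.

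White fat cells store triglyceride in a single large lipid droplet and secrete hormones into the blood. Perilipins coat lipid droplets and govern how lipases reach the stored fat. Plin1 is the perilipin of fat cells, whereas Plin4, which coats small droplets, is also known from striated muscle. Cidec is a droplet protein that helps droplets fuse and grow. Adipoq encodes the hormone adiponectin, Cfd encodes adipsin (complement factor D, the protease that starts the amplification loop of the alternative complement pathway) and Retn encodes resistin. Car3 is a cytosolic carbonic anhydrase that is abundant in fat and in slow skeletal muscle. Fat lies on the outside of the heart and around the great vessels, and PPARG, C/EBP factors and KLF15 are known regulators of fat cell genes.

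Promoter sequences are shown for Plin4, the member expressed in every library, for its family member Plin1, which was near 0, and for Adipoq and Cfd, the secreted products most often used as fat markers. They come from RefSeq on GRCm38.p6, run 5′ to 3′ on the gene's strand, and cover 250 bases before to 50 bases after the annotated start. Capitals mark matches to the C/EBP letters TTNNGNAA and to CACCC, a motif bound by KLF factors, on either strand. The windows are chr17:56109733-56110032 (minus strand) for Plin4, chr7:79732727-79733026 (minus strand) for Plin1, chr16:23146286-23146585 (plus strand) for Adipoq and chr10:79890603-79890902 (plus strand) for Cfd.
Plin4: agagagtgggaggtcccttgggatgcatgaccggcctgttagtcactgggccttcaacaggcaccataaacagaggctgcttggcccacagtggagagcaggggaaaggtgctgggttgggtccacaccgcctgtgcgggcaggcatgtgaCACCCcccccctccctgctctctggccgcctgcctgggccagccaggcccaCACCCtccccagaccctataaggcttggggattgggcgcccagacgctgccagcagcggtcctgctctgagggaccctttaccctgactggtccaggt
Plin1: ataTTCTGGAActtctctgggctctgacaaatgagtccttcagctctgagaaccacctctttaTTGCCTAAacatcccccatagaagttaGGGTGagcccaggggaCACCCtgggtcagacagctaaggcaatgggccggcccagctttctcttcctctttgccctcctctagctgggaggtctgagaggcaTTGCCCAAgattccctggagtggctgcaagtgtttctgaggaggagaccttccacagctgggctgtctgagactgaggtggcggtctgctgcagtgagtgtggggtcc
Adipoq: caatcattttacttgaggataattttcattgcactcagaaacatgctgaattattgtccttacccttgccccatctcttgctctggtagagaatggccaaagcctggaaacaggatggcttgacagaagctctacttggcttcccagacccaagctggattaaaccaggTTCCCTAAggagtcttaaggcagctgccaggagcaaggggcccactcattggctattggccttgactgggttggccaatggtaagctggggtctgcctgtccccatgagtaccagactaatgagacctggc
Cfd: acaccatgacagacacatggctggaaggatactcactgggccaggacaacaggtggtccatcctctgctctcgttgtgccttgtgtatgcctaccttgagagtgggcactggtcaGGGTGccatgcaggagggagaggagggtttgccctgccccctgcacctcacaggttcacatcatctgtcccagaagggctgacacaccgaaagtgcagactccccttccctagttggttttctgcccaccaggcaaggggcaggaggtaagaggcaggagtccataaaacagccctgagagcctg

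The Plin4 window held 2 CACCC matches and no C/EBP match, and that of Plin1 held 2 CACCC and 3 C/EBP matches. The Adipoq window held 1 C/EBP match and the Cfd window 1 CACCC match. Both motifs are short and common: of 32851 RefSeq promoter windows of the same length, 40.7% held the C/EBP letters and 57.5% held CACCC. No window of a member matched the PPAR direct repeat (AGGTCA, any base and AGGTCA again) or the glucocorticoid receptor motif (AGAACA, any 3 bases, TGT, any base and CT), each of which was in 0.0396% of all windows. None held AGGTCA alone, the nuclear receptor motif that makes up that repeat and was in 16.3%, or the letters TATAAA, which were in 13.6%. RefSeq windows were matched for 6 of the 7 members, all but Car3. These matches are a description of letters only.

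The libraries held an estimated 18.3 to 24.2 M read pairs (TPTN 19.1 to 21.2 M, DOX 18.3 to 19.1 M and control 22.9 to 24.2 M). Heart muscle markers were abundant throughout, with 8 ventricular myocyte genes summing to 13320 to 13850 FPKM in TPTN, 13210 to 14990 in DOX and 11880 to 13180 in control libraries. A pair of libraries stood apart. In DOX replicate 1, 8 atrial myocyte genes summed to 2633 FPKM, against 57.0 to 297.1 in the other 8 libraries, and 8 mesothelium genes summed to 3.50 FPKM against 0.769 to 1.57. Outside DOX replicate 1 the atrial sum was mostly Nppa, at 52.6 to 120.5 FPKM in TPTN, 51.2 to 147.3 in control and at least 195.2 in DOX libraries. Myl7 had 538.7 FPKM in DOX replicate 1, and at most 0.889 in TPTN and 0.151 in control libraries. In control replicate 1, 4 lung genes summed to 5.84 FPKM, against 0 to 0.236 in the other libraries. Results are therefore also given without these libraries. In bulk tissue, fewer cells of a type and less RNA per cell cannot be told apart.

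Plin4 (ENSMUSG00000002831, chr17:56100591-56109803 on GRCm38, minus strand) had 21.1, 19.999 and 23.1 FPKM in TPTN replicates 1, 2 and 3. It had 34.7, 27.1 and 26.2 FPKM in the DOX replicates and 34.3, 38.9 and 27.6 FPKM in the control replicates. All 3 TPTN libraries were below every DOX and every control library, while DOX and control libraries overlapped. Of the 12500 genes tested, 14.1% were likewise lower in TPTN than in DOX with no overlap, 6.03% were lower in TPTN than in control with no overlap, and 2.87% were below both groups. Group means were 21.4 ± 1.56 FPKM in TPTN, 29.3 ± 4.68 in DOX and 33.6 ± 5.69 in control (SD, n = 3 each). The deviation within DOX came from replicate 1, which was the second highest of all 9 libraries for Plin4.

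On the log2(FPKM + 1) scale, the Plin4 level differed by -0.43 ± 0.13 (SE) between TPTN and DOX (limma, two-sided, adjusted p = 0.109, unadjusted p = 0.00951). It differed by -0.62 ± 0.13 between TPTN and control (adjusted p = 0.0733, unadjusted p = 0.000986) and by -0.19 ± 0.13 between DOX and control (adjusted p = 0.521). The adjusted threshold of 0.05 was thus not passed in any of the 3 comparisons, so 0 of the 1 member tested was called. The same test called 3.26% of all genes in TPTN against DOX, 0.72% in TPTN against control and 2.63% in DOX against control. At an unadjusted p under 0.05 the shares of all genes were 20.6%, 13.1% and 18%. The comparisons share libraries, so their values for Plin4 are not independent of each other.

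The comparison of TPTN with control lay close to the threshold. Without DOX replicate 1, which enters only through the shared spread, the difference stayed at -0.62 and the adjusted p was 0.0448 in limma. Without control replicate 3, the lowest control, the difference was -0.75 (adjusted p = 0.04999), and without control replicate 2, the highest, it was -0.51 (adjusted p = 0.230). Without control replicate 1 it was -0.60 (adjusted p = 0.137). Leaving out DOX replicate 1 changed the difference between TPTN and DOX to -0.31 (adjusted p = 0.177) and that between DOX and control to -0.31 (adjusted p = 0.220). With values scaled to the sum without mitochondrial genes, the difference between DOX and control was -0.35 (adjusted p = 0.217).

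**Figure D1:**
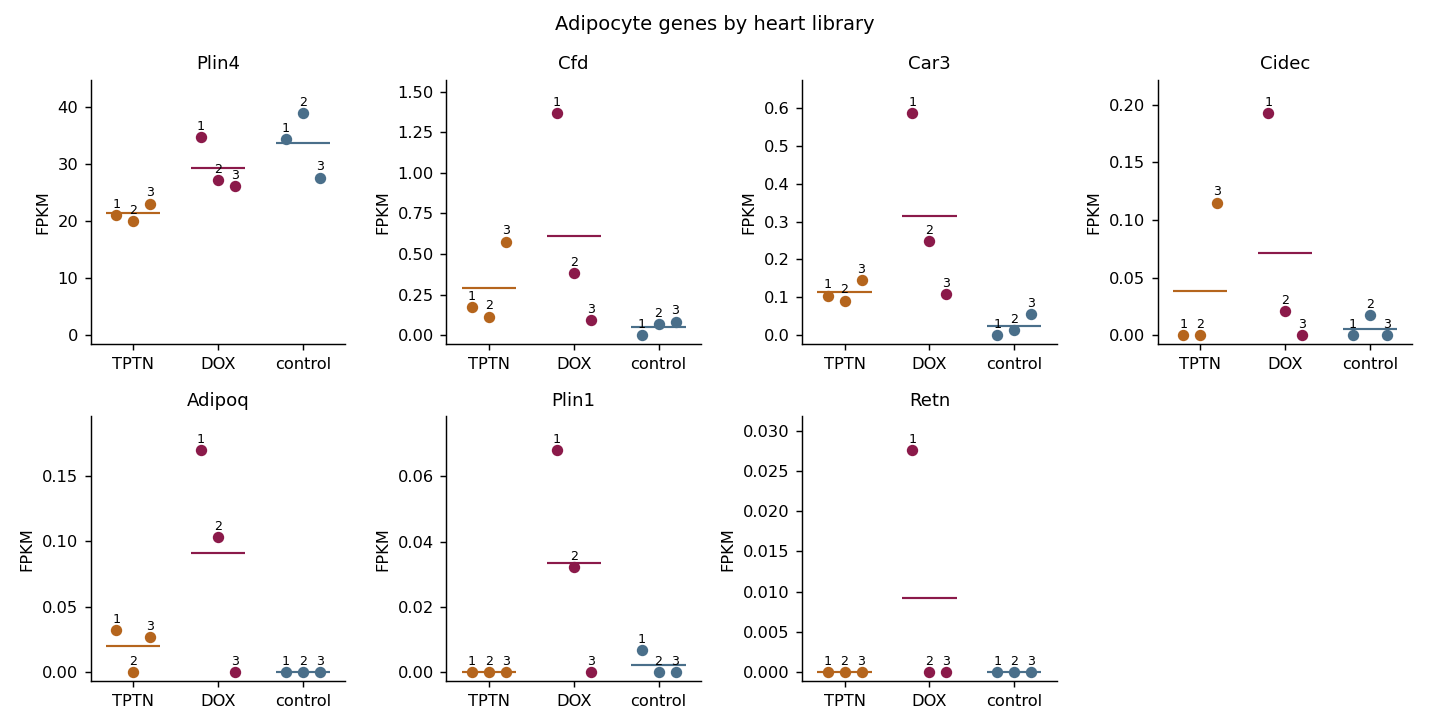
FPKM (y axis, a scale of its own for each gene) of the 7 adipocyte genes in the 3 TPTN, 3 DOX and 3 control heart libraries. Each point is a library with its replicate number and each bar is the group mean; Plin4 lay at 19.999 to 38.9 FPKM and was lowest in the TPTN libraries, and the other 6 genes, none above 1.37 FPKM, were each highest in DOX replicate 1.

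The other droplet proteins among the 7 were close to absent. Plin1 (ENSMUSG00000030546, chr7:79720218-79732903, minus strand) was listed at 0 in all 3 TPTN libraries, at 0.0681, 0.0321 and 0 FPKM in the DOX replicates, and at 0.0067, 0 and 0 FPKM in the control replicates. Its highest value corresponded to 3.64 read pairs over the longest annotated transcript. Cidec (ENSMUSG00000030278, chr6:113424634-113435760, minus strand) was at 0, 0 and 0.115 FPKM in the TPTN replicates, at 0.193, 0.0213 and 0 FPKM in the DOX replicates and at 0, 0.0175 and 0 FPKM in the control replicates. For both genes 1 or 2 libraries carried most of the signal and the 3 groups overlapped.

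Among the secreted products, Cfd (ENSMUSG00000061780, chr10:79890853-79892655, plus strand) was the highest of the 6. It had 0.174, 0.115 and 0.576 FPKM in the TPTN replicates, 1.37, 0.381 and 0.0941 FPKM in the DOX replicates and 0, 0.0706 and 0.0845 FPKM in the control replicates. Every TPTN and DOX library was above every control library, though the lowest DOX and the highest control value, 1.59 and 1.87 read pairs in estimate, do not differ beyond counting error. Adipoq (ENSMUSG00000022878, chr16:23146536-23158028, plus strand) was at 0.0319, 0 and 0.0267 FPKM in the TPTN replicates and at 0.170, 0.103 and 0 FPKM in the DOX replicates, and was listed at 0 in all 3 control libraries. Its highest values stood for an estimated 4.16 read pairs in DOX replicate 1 and 2.56 in DOX replicate 2. Retn (ENSMUSG00000012705, chr8:3655770-3660110, plus strand) was listed at 0 in 8 of 9 libraries and had 0.0276 FPKM in DOX replicate 1, less than 1 read pair in estimate.

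The enzyme gene Car3 (ENSMUSG00000027559, chr3:14863512-14872523, plus strand) followed the libraries in much the same order as Cfd. It had 0.105, 0.0917 and 0.146 FPKM in the TPTN replicates, 0.586, 0.249 and 0.108 FPKM in the DOX replicates and 0, 0.0144 and 0.0567 FPKM in the control replicates. All 6 TPTN and DOX libraries were above the 3 control libraries, as they were for Cfd. Of the 16737 genes under the expression minimum, 0.825% had both groups above control with no overlap. Taken by comparison, 4.07% were higher in TPTN than in control and 3.88% were higher in DOX than in control in this way. Genes of skeletal muscle, a tissue that also expresses Car3, summed to 8.21 to 13.6 FPKM in TPTN, 10.45 to 21.9 in DOX and 10.98 to 14.5 in control libraries, highest in DOX replicate 1. Most of that sum was Myl1 (15.0 FPKM in DOX replicate 1) and Tnnt1 (2.86 to 4.25 FPKM over the libraries), both highest there. Pvalb (0.689 FPKM), Mylpf (0.770), Tnni2 (0.511) and Atp2a1 (0.290) were also highest there. Tnnt3, Actn3, Mybpc1, Tnnc2, Myh1 and Myh2 were highest in other libraries. Tnnc2 was listed at 0 in DOX replicate 1. Myh1 and Myh2, at no more than 0.0125 FPKM in any library, were listed at 0 in all DOX libraries. The part of skeletal muscle in the Car3 values was not tested.

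These 6 genes fell under the minimum mean of 0.5 FPKM and did not enter the main test. Of their 54 values, 26 were listed at 0, which were 9 of 18 in TPTN, 5 of 18 in DOX and 12 of 18 in control libraries. Those under 0.1 FPKM numbered 40, zeros included, 3 were over 0.5 FPKM and 1 was over 1 FPKM. In estimated read pairs, 27 values stood for at most 0.5 of a pair, 6 for more than 5 and 3 for more than 10. The largest was Cfd in DOX replicate 1, with 23.9 pairs.

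In the same limma fit without an expression minimum, 0 of the 7 members passed the adjusted threshold in any comparison, where 0.00684% of 29237 genes did so in TPTN against DOX, 0.0205% in TPTN against control and 0.00684% in DOX against control. At an unadjusted p under 0.05, Car3 and Adipoq passed in DOX against control, with differences of 0.34 ± 0.12 (SE, unadjusted p = 0.0185, adjusted p = 0.380) and 0.12 ± 0.05 (unadjusted p = 0.0372, adjusted p = 0.476). Plin4 passed that unadjusted level in TPTN against DOX and in TPTN against control. Of all genes, 11.2% passed it in TPTN against DOX, 7.82% in TPTN against control and 9.65% in DOX against control. For Cfd the difference was 0.54 ± 0.27 between DOX and control (adjusted p = 0.581), -0.26 ± 0.27 between TPTN and DOX (adjusted p = 0.702) and 0.28 ± 0.27 between TPTN and control (adjusted p = 0.798). Without DOX replicate 1, Cfd differed by 0.23 between DOX and control and by 0.05 between TPTN and DOX, a change of sign for the second. For Retn no fold is given between TPTN and control, as it was listed at 0 in both.

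Summed over the 6 genes, FPKM was 0.311, 0.207 and 0.864 in the TPTN replicates, 2.41, 0.787 and 0.203 in the DOX replicates and 0.0067, 0.103 and 0.141 in the control replicates. DOX replicate 1 had 2.79 times the sum of the next library, TPTN replicate 3. All 6 members were highest in DOX replicate 1, and among genes under the expression minimum 16.5% were highest there. The same library was highest for the summed atrial, mesothelium, fibroblast, nerve and skeletal muscle markers, the last sum being mostly Myl1. The fibroblast sum there was mostly Dcn, at 71.6 FPKM. Of the fibroblast genes, Dcn, Pdgfra and Tcf21 were highest in DOX replicate 1. Col1a1 and Col3a1 were highest in TPTN replicate 2, Col1a2 in TPTN replicate 3 and Lum in DOX replicate 2. The part of those tissues in the members' values was not tested. TPTN replicate 3 and DOX replicate 2, next in order for the 6 genes, had 59.8 and 297.1 FPKM of summed atrial genes, mostly Nppa in both. Their summed mesothelium genes were 0.952 and 0.825 FPKM.

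**Figure D2:**
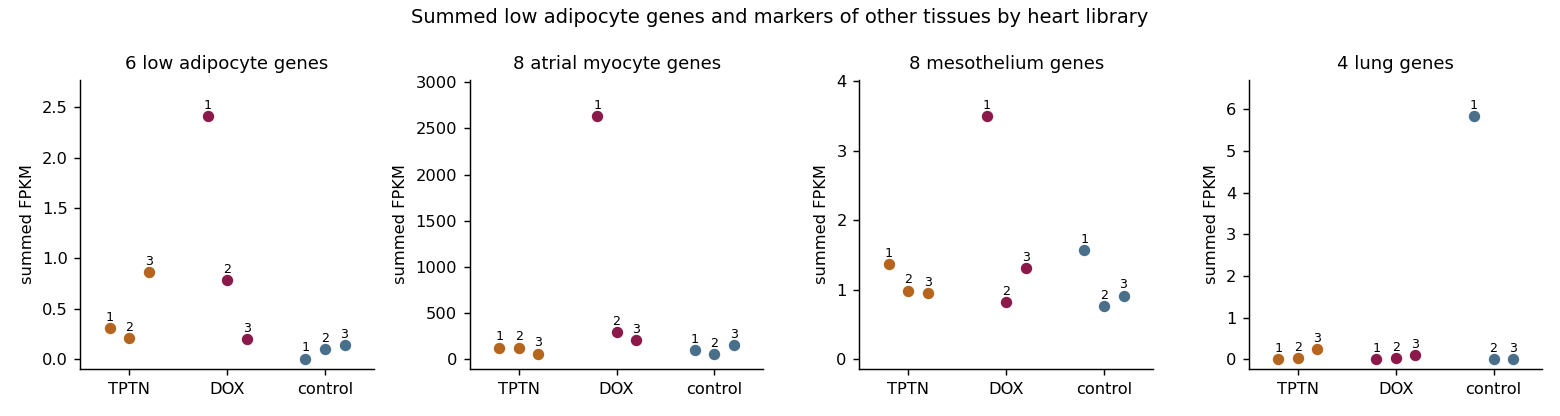
Summed FPKM (y axis, a scale of its own for each panel) of the 6 low adipocyte genes, of 8 atrial myocyte, 8 mesothelium and 4 lung genes in each TPTN, DOX and control library, numbered by replicate. DOX replicate 1 was highest for the adipocyte (2.41), atrial (2633) and mesothelium (3.50) sums, and control replicate 1 for the lung sum (5.84).

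Whether the members were high in the same libraries was examined over all 21 pairs, with log2(FPKM + 1) in 9 libraries and an exact two-sided permutation test of the pairings. The 15 pairs of the 6 low genes had Pearson r of 0.74 to 0.96 with a median of 0.88, and Spearman rho of 0.34 to 0.93. After Benjamini-Hochberg adjustment over the 21 pairs, 6 of the 15 had p under 0.05 for r and 1 had so for rho. Without DOX replicate 1, r of those 6 pairs was 0.65 to 0.88. Over 8 libraries 0 of the 10 such pairs that still had a value passed the adjusted threshold, and 3 had an unadjusted p under 0.05 (Adipoq with Car3, Cfd with Car3 and Cfd with Cidec). Without DOX replicates 1 and 2, the libraries farthest from the median, r was -0.26 for Adipoq with Plin1 and -0.63 for Plin1 with Car3, so these relations of Plin1 rest on those libraries. Each pair of Retn, present in 1 library, with another low gene had a p of 0.111.

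The pair of Cfd and Car3 was the one that passed on both measures. Pearson r was 0.94 (exact permutation p = 0.00201, adjusted p = 0.0141) and Spearman rho was 0.93 (exact permutation p = 0.00075, adjusted p = 0.0157). Without the libraries farthest from the median, DOX replicate 1 and TPTN replicate 3, r was 0.95, and without DOX replicate 1 alone it was 0.78. Within a library, the ratio of Cfd to Car3 in FPKM ran from 0.868 in DOX replicate 3 to 4.92 in control replicate 2. By contrast, Plin4 had r of 0.11 to 0.39 with the 6 low genes and 0 of 6 pairs passed, with 0 at an unadjusted p under 0.05. With group means subtracted, which leaves the differences among libraries of a group, r of Plin4 with them was 0.55 to 0.73 and 1 of 6 pairs passed. Such values sum to 0 within a group, so permuting them over all 9 libraries is not an exact test and that count decides nothing. Plin4 exceeded Cfd by 25.4 times in DOX replicate 1 and by 551 times in control replicate 2.

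The genes with the pattern most like the members' mean, among 11036 genes with a symbol, were Pcgf2, Smoc1, Enpp2, Podn, Evc, Pdk3, Hdgfl3 and Smad6. Their r over the 9 libraries was 0.96 to 0.98. All 8 were highest in DOX replicate 1, as with Podn at 7.30 FPKM there and 0.988 to 1.65 FPKM elsewhere, and without that library their r was 0.64 to 0.88.

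Of 18 other fat cell genes found in the table from a list of 20, 9 passed the expression minimum and 0 of the 9 were called by limma in any comparison. At an unadjusted p under 0.05 there were 2 in TPTN against DOX, 1 in TPTN against control and 0 in DOX against control. The summed level of the list was 97.9 FPKM in DOX replicate 1, the 7th highest of 9 libraries, and 90.3 to 118.5 FPKM in the others. Most of this sum was Fabp4 and Gpd1, so it cannot show whether the lower genes of the list followed the 6 low members. Of the 9 genes past the minimum, Trarg1, Nnat and Sfrp5 were highest in DOX replicate 1 and the rest in other libraries. Sfrp5 ran from 0.261 to 5.51 FPKM in DOX and was at no more than 0.297 FPKM in TPTN and 0.275 FPKM in control libraries. Of the 9 list genes under the minimum, 2 were highest in DOX replicate 1, beside 16.5% of all genes under the minimum. One of these, Lep, which encodes the fat hormone leptin, was at 0.0241 FPKM there and listed at 0 in the other 8 libraries. The other, Nat8l, ran from 0.263 to 0.693 FPKM in DOX and was at no more than 0.281 FPKM in TPTN and 0.286 FPKM in control libraries. By contrast, Lgals12, Acvr1c and Slc7a10 were above 0 in control libraries alone, at no more than 0.0129 FPKM, and Pck1 was listed at 0 in all 3 DOX libraries. Sfrp5 and these low genes were named after their values were seen. Several genes of the list are expressed in heart as well. Fabp4, a fatty acid carrier of fat cells, macrophages and capillary endothelium, averaged 63.1 ± 7.54 FPKM in TPTN, 67.9 ± 10.2 in DOX and 70.2 ± 3.97 in control (SD, n = 3 each). Gpd1, which makes the glycerol backbone of triglyceride, averaged 17.4 ± 1.13 FPKM in TPTN, 21.9 ± 1.34 in DOX and 23.6 ± 3.82 in control libraries (adjusted p = 0.126 between TPTN and DOX and 0.122 between TPTN and control). The median log2 difference of the 9 genes was -0.16 in TPTN against DOX, -0.07 in TPTN against control and 0.02 in DOX against control, beside -0.01, 0.04 and 0.04 over all genes tested.

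Brown fat is marked by Ucp1, the uncoupling protein of its mitochondria. Ucp1 was at 0.0207 FPKM in TPTN replicate 2 and listed at 0 in the other 8 libraries. Of 7 brown fat genes found, 3 were tested and 0 were called by limma, with unadjusted counts of 1, 2 and 0 in TPTN against DOX, TPTN against control and DOX against control. Prdm16 and Ppargc1b, the genes behind these counts, were higher in TPTN. Prdm16 had 1.52 to 2.14 FPKM in TPTN, 1.12 to 1.32 in DOX and 1.16 to 1.48 in control libraries. Ppargc1b had 2.59 to 2.75, 1.98 to 2.28 and 1.39 to 2.20 FPKM in that order. Cidea, a droplet protein of the Cidec family that is known from brown fat, was well expressed at 14.1 to 16.7 FPKM in TPTN, 15.7 to 20.5 in DOX and 14.4 to 18.3 in control libraries. Cideb, the family member known from liver, had 0.342 to 1.08 FPKM in TPTN, 1.19 to 1.74 in DOX and 0.428 to 0.7999 in control libraries. The DOX libraries did not overlap the others, and Cideb differed by -0.65 ± 0.16 between TPTN and DOX (limma, adjusted p = 0.0625) and by 0.66 ± 0.16 between DOX and control (adjusted p = 0.0661).

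Of the other perilipins, Plin2, Plin3 and Plin5 were expressed in every library. Plin5, the perilipin of oxidative tissue, averaged 40.3 ± 0.693 FPKM in TPTN, 47.7 ± 4.48 in DOX and 52.9 ± 9.82 in control (SD, n = 3 each), and its TPTN libraries were below all others. Plin3 averaged 27.2 ± 2.38 FPKM in TPTN, 34.6 ± 2.94 in DOX and 35.0 ± 2.65 in control, again with the TPTN libraries lowest. Plin2, which coats droplets in most tissues, averaged 12.5 ± 0.542 FPKM in TPTN, 12.6 ± 1.496 in DOX and 13.2 ± 1.34 in control, with overlap throughout. Limma called 0 of these 3, with unadjusted counts of 1 in TPTN against DOX, 2 in TPTN against control and 0 in DOX against control. Plin3 differed by -0.34 ± 0.09 between TPTN and DOX (adjusted p = 0.0676) and by -0.35 ± 0.09 between TPTN and control (adjusted p = 0.109). The ratio of Plin4 to Plin2 was 1.59 to 1.77 in TPTN, 1.91 to 3.19 in DOX and 2.29 to 2.69 in control libraries.

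**Figure D3:**
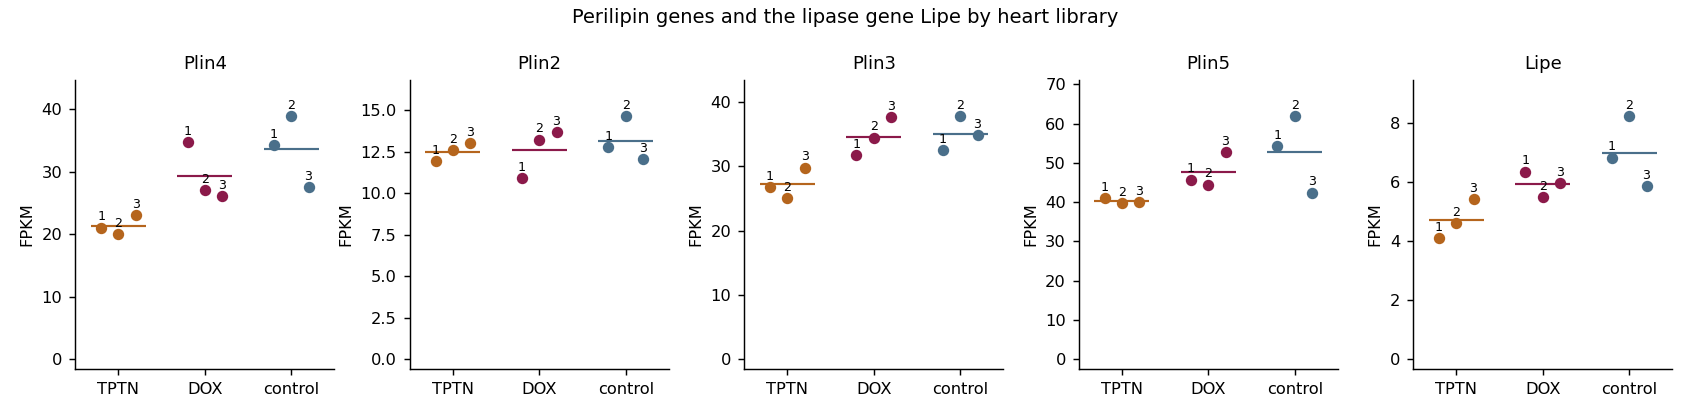
FPKM (y axis) of Plin4, Plin2, Plin3, Plin5 and the lipase gene Lipe in each TPTN, DOX and control library, numbered by replicate, with group means as bars. The TPTN libraries were lowest for Plin4 (19.999 to 23.1 FPKM), Plin3, Plin5 and Lipe, and overlapped the other groups for Plin2.

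Of 17 genes of triglyceride storage and breakdown, all tested, limma called 1 lower and 0 higher in TPTN against DOX, and 0 in TPTN against control and in DOX against control. Unadjusted counts were 7, 7 and 1. The gene called was Gpihbp1, which anchors lipoprotein lipase to capillary endothelium. It had 13.7, 17.1 and 15.9 FPKM in the TPTN replicates, 19.4, 26.3 and 25.0 FPKM in the DOX replicates and 23.1, 21.05 and 21.6 FPKM in the control replicates. It fell in TPTN against DOX by 0.56 ± 0.11 on the log2 scale (adjusted p = 0.0303). Lipe, the hormone-sensitive lipase, averaged 4.71 ± 0.670 FPKM in TPTN, 5.92 ± 0.435 in DOX and 6.96 ± 1.19 in control (SD, n = 3 each), and its TPTN libraries were below all others (adjusted p = 0.203 against DOX and 0.106 against control). Pnpla2, the lipase that takes the first step of fat breakdown, averaged 67.2 ± 6.80 FPKM in TPTN, 87.2 ± 4.38 in DOX and 88.4 ± 12.8 in control (adjusted p = 0.0774 against DOX and 0.136 against control). Not all genes of the list were lower in TPTN. Gpam had 23.5 to 25.8 FPKM in TPTN, 18.0 to 18.9 in DOX and 23.1 to 34.7 in control libraries. It differed by 0.40 ± 0.13 between TPTN and DOX (limma, adjusted p = 0.119) and by -0.51 ± 0.13 between DOX and control (adjusted p = 0.0707). Mgll, too, was higher in TPTN (22.3 to 26.3 FPKM) than in DOX (16.9 to 21.7 FPKM).

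Of 8 tested transcription factors of fat cell formation, limma called 2 lower and 1 higher in TPTN against DOX, 3 lower in TPTN against control and 0 in DOX against control, where 3 had an unadjusted p under 0.05. Klf15 had 6.16, 6.46 and 5.30 FPKM in the TPTN replicates, 9.82, 9.80 and 7.33 FPKM in the DOX replicates and 11.3, 11.3 and 12.9 FPKM in the control replicates. The 3 groups did not overlap. Klf15 fell by 0.51 ± 0.11 in TPTN against DOX (adjusted p = 0.0364) and by 0.88 ± 0.11 in TPTN against control (adjusted p = 0.00819). Cebpd, an early factor of fat cell formation, fell by 0.63 ± 0.14 in TPTN against DOX (adjusted p = 0.0429) and by 0.78 ± 0.14 in TPTN against control (adjusted p = 0.0351). Cebpb, its partner, fell by 0.79 ± 0.12 in TPTN against control (adjusted p = 0.0190) and averaged 5.92 ± 0.852 FPKM in TPTN, 8.59 ± 0.940 in DOX and 10.97 ± 1.69 in control (SD, n = 3 each). Mlxipl, which encodes the glucose-responsive factor ChREBP, rose by 0.35 ± 0.08 in TPTN against DOX (adjusted p = 0.0438). Pparg, the main fat cell regulator, averaged 2.26 ± 0.364 FPKM in TPTN, 2.42 ± 0.699 in DOX and 2.83 ± 0.430 in control, and Cebpa averaged 1.19 ± 0.116 FPKM in TPTN, 1.49 ± 0.483 in DOX and 1.08 ± 0.119 in control. Neither passed the test.

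**Figure D4:**
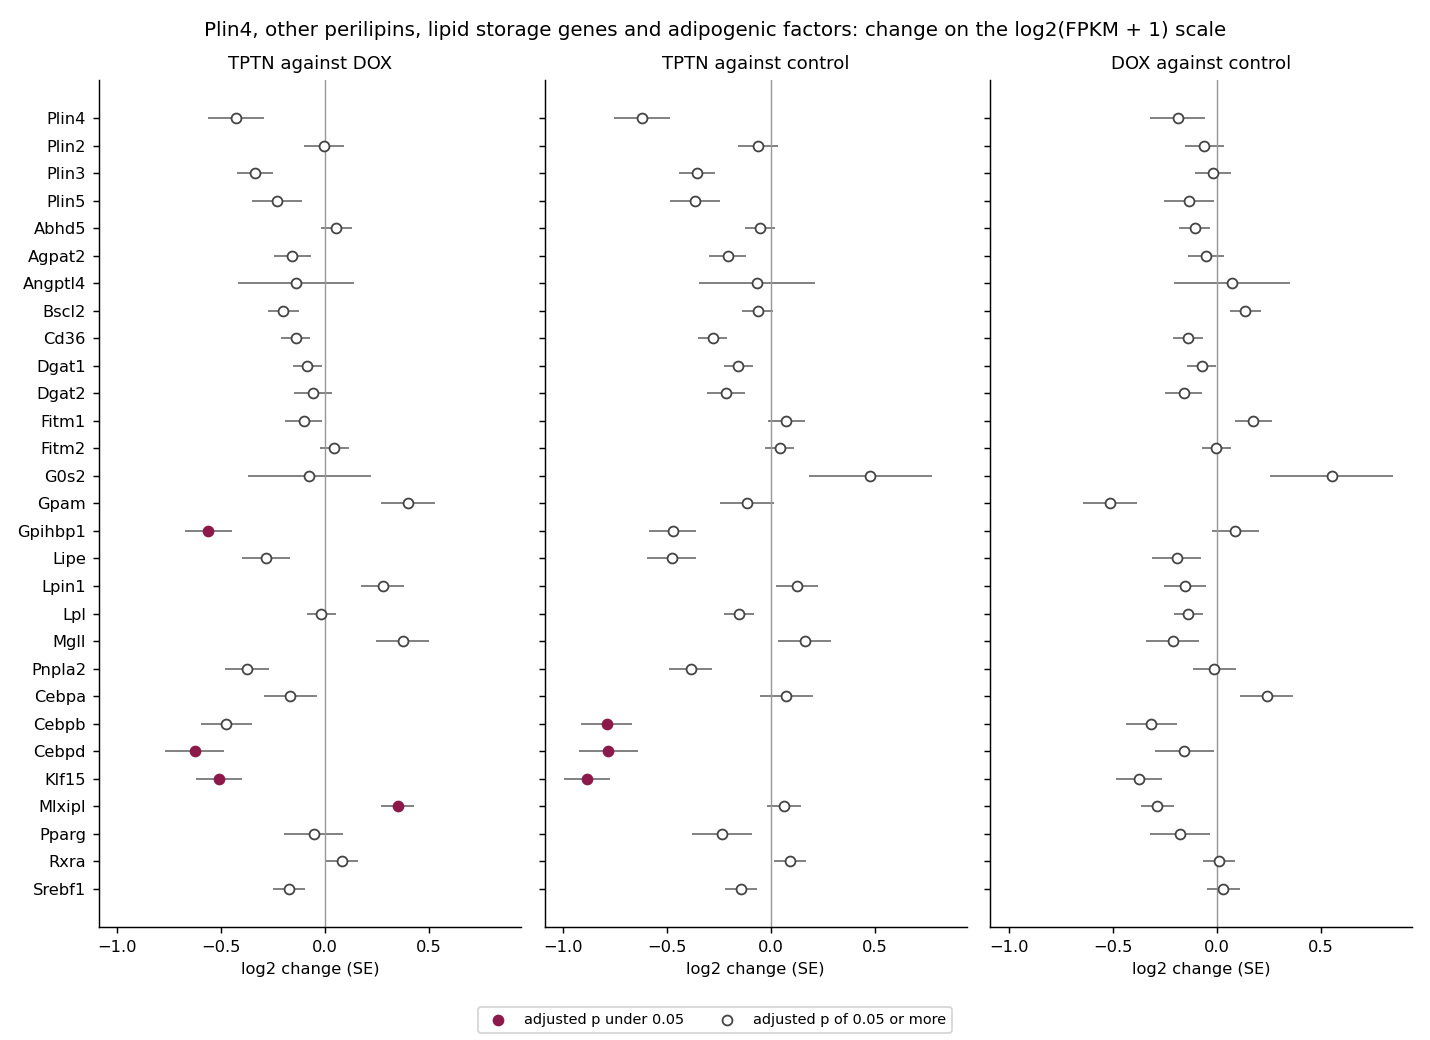
Log2 difference (x axis, log2(FPKM + 1) scale, bars are 1 SE) of Plin4, the other 3 perilipins, 17 lipid storage genes and 8 adipogenic factors in TPTN against DOX, TPTN against control and DOX against control. Filled points passed an adjusted p of 0.05 in limma: Gpihbp1, Cebpd, Klf15 and Mlxipl in TPTN against DOX, and Cebpb, Cebpd and Klf15 in TPTN against control; Plin4, at -0.43, -0.62 and -0.19, is an open point in each panel.

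Group means of Klf15, Cebpb and Cebpd were lowest in TPTN and highest in control libraries, an order shared with the neutrophil markers. Single libraries differed: Klf15 was highest in control replicate 3, and Cebpb and Cebpd in control replicate 1. The neutrophil sum and Plin4 were highest in control replicate 2. The 5 neutrophil genes summed to 0.754 to 1.12 FPKM in TPTN, 2.33 to 5.13 in DOX and 5.51 to 12.3 in control libraries, and S100a9 fell by 2.01 ± 0.28 in TPTN against control (limma, adjusted p = 0.0264). Their part in the values of the factors and of Plin4 was not tested.

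Of 8 tested genes of fatty acid synthesis, 1 was called in DOX against control and 1 in TPTN against DOX, both lower, and 0 in TPTN against control, where 1 had an unadjusted p under 0.05. Thrsp, a lipogenic regulator, averaged 5.40 ± 1.03 FPKM in TPTN, 5.32 ± 0.970 in DOX and 8.83 ± 1.05 in control (SD, n = 3 each), and fell by 0.64 ± 0.14 in DOX against control (limma, adjusted p = 0.0449). Slc25a1, the mitochondrial citrate carrier, fell by 0.37 ± 0.07 in TPTN against DOX (limma, adjusted p = 0.0291).

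All 8 genes of adiponectin reception and signalling were tested and limma called 0, with unadjusted counts of 2 in TPTN against DOX, 2 in TPTN against control and 4 in DOX against control. Adipor1, an adiponectin receptor, averaged 23.4 ± 2.00 FPKM in TPTN, 26.6 ± 0.779 in DOX and 22.8 ± 1.04 in control. Adipor2, the other receptor, averaged 12.0 ± 0.329 FPKM in TPTN, 11.4 ± 0.814 in DOX and 14.1 ± 0.914 in control (adjusted p = 0.0726 between DOX and control). Cdh13, which binds adiponectin at the cell surface, averaged 9.73 ± 0.452 FPKM in TPTN, 9.58 ± 0.360 in DOX and 8.41 ± 0.470 in control (SD, n = 3 each). Of 7 tested genes of the alternative complement pathway in which adipsin acts, limma called 0, with unadjusted counts of 1, 0 and 0 in TPTN against DOX, TPTN against control and DOX against control. C3, the central component, averaged 16.2 ± 1.18 FPKM in TPTN, 21.4 ± 2.46 in DOX and 19.0 ± 3.40 in control.

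Resistin's relative Retnla, an alternative activation product of mouse macrophages, had 2.74, 3.79 and 9.08 FPKM in the TPTN replicates, 5.59, 3.88 and 2.85 FPKM in the DOX replicates and 3.76, 1.80 and 2.51 FPKM in the control replicates. The groups overlapped and it was not called (adjusted p of 0.849, 0.572 and 0.618 for TPTN against DOX, TPTN against control and DOX against control).

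Several other carbonic anhydrases were expressed in heart at higher levels than Car3. Of 13 found in the data, 6 were tested, and of these limma called 2 lower in TPTN against DOX, 1 lower in TPTN against control and 1 higher in DOX against control. Car4, the membrane-bound form known from capillary endothelium, had 5.32, 5.07 and 5.67 FPKM in the TPTN replicates, 9.02, 9.18 and 10.9 FPKM in the DOX replicates and 10.1, 10.9 and 8.95 FPKM in the control replicates. The TPTN libraries did not overlap the others. Car4 fell by 0.75 ± 0.09 in TPTN against DOX (adjusted p = 0.00759) and by 0.79 ± 0.09 in TPTN against control (adjusted p = 0.00532). Car14, a membrane-bound form known from muscle, averaged 34.1 ± 1.65 FPKM in TPTN, 44.9 ± 2.79 in DOX and 36.5 ± 0.834 in control (SD, n = 3 each), a fall of 0.39 ± 0.07 in TPTN against DOX (adjusted p = 0.0228) and a rise of 0.29 ± 0.07 in DOX against control (adjusted p = 0.0477). The rise was 0.13 (adjusted p = 0.253) after mitochondrial genes were left out of the scaling, it was 0.14 (adjusted p = 0.305) after quantile normalization, and it passed in 2 of 9 settings that kept all libraries. The 7 genes of the endothelium list summed to 122.9 to 144.1 FPKM in TPTN, 124.9 to 135.1 in DOX and 118.8 to 129.8 in control libraries. Limma called 0 lower and 1 higher, Kdr, both in TPTN against DOX and in TPTN against control.

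Genes were called 23 times over the lists and comparisons, and each kept its direction under all 18 other settings. With no expression minimum 0 of the 23 passed the threshold, and 7 did not pass it without DOX replicate 1, among them Klf15 and Cebpd in TPTN against DOX. Leaving out each of the 9 libraries in turn, 19 of the 23 failed the threshold at least once. In TPTN against DOX, Gpihbp1 and Klf15 passed in 3 of those 9 fits, Cebpd in 2, Mlxipl in 1, and Slc25a1 and Car14 in 4. In TPTN against control, Cebpb passed in 6, S100a9 in 4 and Cebpd in 3. In DOX against control, Thrsp passed in 2 and Car14 in 1. Car4, and Klf15 and the neutrophil gene Lcn2 in TPTN against control, passed under every setting but that with no minimum.

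In the authors' deposited table, Plin4 had a p-value of 0.000107 and a q-value of 0.00380 and was marked significant, and the other 6 members had a p-value and a q-value of 1. The table's header does not name the groups behind these values, so they cannot be set beside a single comparison.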

How the data were processed

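Heart RNA was taken up in Trizol, selected on oligo(dT), strand-marked with dUTP and sequenced as paired reads, from RNA with an integrity number above 7.0, per the labels' protocols. The submitters' processing notes name cutadapt 1.9, HISAT2 2.0.4, StringTie 1.3.4d, DESeq2, edgeR and GRCm38, without their roles. The authors deposited FPKM values per gene. Their deposited p-value and q-value columns come with a significance flag, and per the file headers the comparison is unnamed. Because FPKM is scaled to each library's total, very abundant transcripts that change shift all others.

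Groups follow the sample titles. Values were tested with limma 3.58.1 (R 4.3.3) as log2(FPKM + 1) in the 12500 genes with a mean of at least 0.5 FPKM over the 9 libraries. A mean per group, a trend and robust estimation were used on 6 residual degrees of freedom, with Benjamini-Hochberg adjustment over all genes tested and a threshold of 0.05. A log2 difference on this scale understates the change of low genes. A single value compared 3 against 3 by exact permutation cannot go below p = 0.1, so such tests were not used. The members and the 24 gene lists were chosen with earlier results of these data known. Genes named were all 7 members, the 3 other perilipins, the CIDE and resistin relatives past the minimum, up to 4 genes of each list with the smallest p, and the 8 genes most like the members' mean. Lep, Nat8l, Sfrp5, Nnat, Lgals12, Acvr1c, Slc7a10, Pck1, Ucp1, Fabp4, Pparg, Cebpa, Pnpla2, Mgll, Pdgfra, Tcf21 and Lum were added after their values were seen. So were the genes of the skeletal muscle list other than Myl1 and Tnnt1.

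Depth was estimated from 15203 single-transcript genes, whose commonest low product of FPKM and length was taken as 1 read pair. Whole multiples of it, within 0.05, made up 11.5 to 14.7% of low values, little more than evenly spread values would give. No test of counts was therefore made, and pair estimates are rough and cover counting error only. Positions are from GENCODE M21 (GRCm38), in which 29154 of 29237 identifiers were found. Libraries with the same replicate number did not deviate together: their deviations correlated at -0.261 to 0.0233. With 3 libraries per group this cannot exclude a pairing by number. Those with different numbers correlated at -0.251 to 0.398. The highest were TPTN replicate 1 with control replicate 3 (0.398), TPTN 2 with control 1 (0.293) and TPTN 3 with control 2 (0.226), and their cause was not tested. The labels give no batch. The procedure was tested on simulated data with normal noise and no outlying library, in which only well expressed genes were changed. That test does not cover the low members or libraries that stand apart. Python 3.11.15 with numpy 2.4.6, pandas 2.3.3 and matplotlib 3.10.9 served for tables and plots.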

Additional observations from a re-analysis of the deposited data

How the results depend on the processing

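The comparisons of Plin4 kept their direction under every setting tried (another pseudocount, no minimum, a minimum of 1 FPKM, 2 groups only, no robust estimation, a replicate block, 3 other scalings and each library left out). The count of members past the threshold was 0 throughout for TPTN against DOX (adjusted p of 0.0723 to 0.332) and DOX against control. For TPTN against control it was 0 to 1 when a library was left out, and 0 otherwise (adjusted p of 0.0448 to 0.321). With the replicate block the counts stayed 0, and over all genes 159 were called in TPTN against DOX, 62 in TPTN against control and 170 in DOX against control, against 407, 90 and 329 without it. Of the 23 calls of list genes, 10 did not pass with it. Libraries with the same number did not deviate together, which cannot exclude a pairing.

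Of the 6 low genes, whose values without a minimum were added after seeing the data, the direction turned for Cfd (0.0505) and Cidec (0.0373) in TPTN against DOX without DOX replicate 1, and for Cidec in TPTN against control without TPTN replicate 3 (-0.0084). Over all libraries left out, these log2 differences ran from -0.51 to 0.0505, from -0.0949 to 0.0373 and from -0.0084 to 0.0703. Retn has no value without DOX replicate 1. The correlated pairs, 6 in all, numbered 3 with no log and 15 with group means subtracted, and 0 to 9 when a library was left out. The permutation is not exact with group means subtracted, so the 15 cannot be set beside the other counts. The cause of these differences between settings was not tested.

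Over all genes, no minimum left 2 calls in TPTN against DOX, 6 in TPTN against control and 2 in DOX against control. Scaling without mitochondrial genes gave 671 in TPTN against DOX and moved the median log2 difference of all genes in DOX against control to -0.07, against 0.04. For DOX against control there were 176 calls with 2 groups only, 155 with median ratios and 143 with quantile normalization. Leaving out a library gave 45 to 468, 21 to 148 and 2 to 314 calls in the 3 comparisons in that order. Depth limits the 6 low genes, 27 of whose 54 values stood for at most 0.5 of a read pair.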

Other observations

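Retnlg, the resistin relative of mouse neutrophils, was chosen after its values were seen. It had 0, 0 and 0.0756 FPKM in the TPTN replicates, 0, 0.139 and 0.122 FPKM in the DOX replicates and 0.802, 1.97 and 0.637 FPKM in the control replicates. Every control library was above every other library, and the gene was under the minimum mean and not tested. The summed neutrophil genes were likewise lowest in TPTN and highest in control libraries.

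With Plin4 alone as the pattern, also chosen after the values were seen, the most similar of 11036 genes were Fbxo31 (r = 0.95 over 9 libraries), Tmtc1, Lipe, Entpd1, Acer2, Bmp6, Bmf and Etfbkmt, the last with r = 0.91. Lipe, the lipase described above, had r = 0.93, and r = 0.95 without DOX replicate 1. Acer2 averaged 2.24 FPKM in TPTN, 3.29 in DOX and 3.92 in control libraries. These are correlations chosen as the highest of many and carry no test.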
